A study of Mus musculus with 4 samples.

Results

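Complement is a cascade of plasma and cell surface proteins in which proteases are assembled on a target, cleave C3 and go on to form a pore in the membrane. The classical and lectin routes use a C3-cleaving enzyme built from C4b and C2, the alternative route uses 1 built from C3b and factor B, and properdin stabilises the latter. C1 inhibitor, a serpin, blocks the proteases that start the classical and lectin routes. Liver makes most of the plasma proteins, while macrophages, neutrophils, fibroblasts and endothelial cells make some of them inside tissues and tumours.

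The genes described here are complement components and regulators other than C1q, and were taken as every probe whose platform annotation names C2, C3, C4b, Cfb, Cfp or Serping1. Of these 6 genes, 4 had a probe, each with 1 probe, out of 17711 genes named by the annotation on 46632 probes. C2 was read by probe ILMN_2612895, Cfb by ILMN_1230853, Cfp by ILMN_1228320 and Serping1 by ILMN_2775421. No probe used here was named C3 or C4b, so both genes were not analysed here. With a single probe per gene, no second probe could be set beside any of these values.

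The samples were whole subcutaneous tumours grown for 10 days under the abdominal skin from a mouse melanoma line that expresses luciferase, B16-F10-luc-G5. The hosts were 2 wild-type animals, numbered replicates 2 and 3, and 2 VAP-1 -/- animals, numbered replicates 1 and 2. VAP-1, vascular adhesion protein 1, is an amine oxidase of the vessel wall encoded by Aoc3, and the host animals alone lacked it, since both groups received the same tumour cells. The sources used here do not give the strain, the age or the way the knockout was made. Each tumour was measured on 1 Illumina bead array, and the comparison asks how signal in the tumour differed with the host genotype.

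Values are log2 of background-corrected and quantile-normalized intensity, which ran from 5.65 to 14.72 over all probes. Probes with a mean above 6.07, the 40th percentile, were tested, and all 4 complement probes passed this filter. The 7 melanoma genes ran from Mlana, between 14.43 and 14.63 on the 4 arrays, down to Tyr, between 7.90 and 8.82. Their differences ran from -0.50 ± 0.23 for Tyr to 0.84 ± 0.20 for Sox10 (SE, n = 2 each). Of these genes, 0 had a limma adjusted p under 0.05. The targeted gene Aoc3 read 7.98 and 7.16 in wild type against 7.27 and 7.14 in the knockout. That difference of -0.37 ± 0.29 (SE, n = 2 each) was within the replicate spread, with limma adjusted p = 0.606, and a dimmer second probe differed by -0.05 ± 0.12. The sources used here do not say whether the probes lie in the deleted part, so groups are named as labelled. Over probes, the knockout arrays were closer to each other (SD of the log2 difference 0.244) than the wild-type arrays (0.392).

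None of the 4 complement genes passed the test. C2, Cfb and Cfp had higher signal on both knockout arrays than on either wild-type array, by 1.14-fold to 1.26-fold in the means, and Serping1 was level in the means and split within each group. Of the 4 probes, 0 had a limma adjusted p under 0.05 and 0 had an unadjusted p under 0.05, where 0% and 16.4% of the 27979 tested probes did. The 3 probes whose groups did not overlap stood against 23.6% of all tested probes that lay apart in the same direction. The median difference over the 4 probes was 0.25, beside -0.021 over all tested probes. In whole tumours, a change in the number of cells of a type and a change in RNA per cell cannot be told apart.

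**Figure D1:**
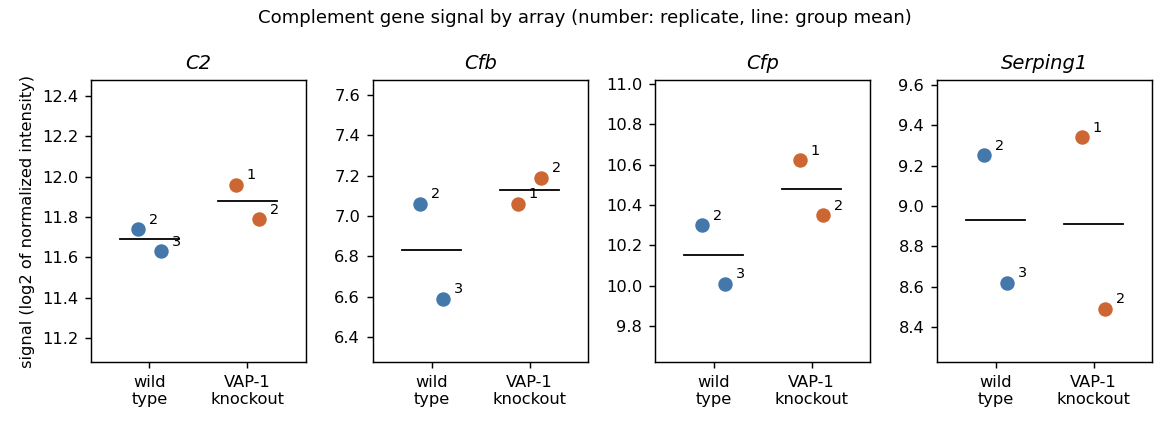
Signal (log2 of normalized intensity, y axis, the same span in each panel) of C2, Cfb, Cfp and Serping1 on the 2 wild-type and 2 VAP-1 knockout arrays; each point is 1 tumour with its replicate number, and each line is a group mean. The knockout points lie above the wild-type points for C2, Cfb and Cfp, for Cfb by only 0.003 at the nearest pair, while Serping1 ranges over 0.85 within the knockout pair.

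C2 encodes the protease precursor that binds C4b and gives the classical and lectin enzyme its catalytic subunit. Its signal was 11.74 and 11.63 on wild-type replicates 2 and 3 and 11.96 and 11.79 on knockout replicates 1 and 2. All 4 arrays lay within 0.33 of each other, and the lower knockout array stood 0.05 above the higher wild-type array, less than the gap of 0.17 between the knockout arrays. The difference, knockout minus wild type, was 0.19 ± 0.12 (SE, n = 2 each), with limma adjusted p = 0.511. Its 95% interval ran from 0.92-fold to 1.42-fold, and without knockout replicate 1 the difference was 0.11 (limma adjusted p = 0.963). As a plain size, 42.3% of tested probes differed by more.

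Cfb encodes factor B, the counterpart of C2 in the alternative route and a gene that interferon and inflammatory cytokines are known to induce. It read 7.06 and 6.59 on wild-type replicates 2 and 3 and 7.06 and 7.19 on knockout replicates 1 and 2. The groups were apart by 0.003, so that only wild-type replicate 3 was low and the other 3 arrays lay together. The difference was 0.30 ± 0.19 (SE, n = 2 each, limma adjusted p = 0.519), with a 95% interval of 0.87-fold to 1.74-fold. It was 0.07 when wild-type replicate 3 was left out and 0.53 when wild-type replicate 2 was left out (limma adjusted p = 0.824 and 0.0855).

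Cfp encodes properdin, which binds and stabilises the alternative route's enzyme and is made mainly by neutrophils, monocytes and other leukocytes. Wild-type replicates 2 and 3 read 10.30 and 10.01, and knockout replicates 1 and 2 read 10.62 and 10.35. Knockout replicate 2 and wild-type replicate 2 differed by 0.05, while the arrays within each group differed by 0.29 and 0.27. The means of Cfp differed by 0.33 ± 0.16 (SE, n = 2 each), or 1.26-fold with a 95% interval of 0.93-fold to 1.70-fold, and limma adjusted p = 0.421. Of all tested probes, 25% differed by more. Without knockout replicate 1 the difference was 0.19, as it was without wild-type replicate 3.

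Serping1 encodes C1 inhibitor, which also restrains the kallikrein and bradykinin system of vessel leakage. It read 9.25 and 8.62 on wild-type replicates 2 and 3 and 9.34 and 8.49 on knockout replicates 1 and 2. High and low arrays thus occurred in each group, with gaps of 0.63 and 0.85 between replicates, and the groups overlapped. The means differed by -0.02 ± 0.37 (SE, n = 2 each, limma adjusted p = 0.986). The 95% interval of 0.50-fold to 1.94-fold was the widest of the 4 genes, so these arrays leave room for a sizeable difference in either direction. The intervals of C2, Cfb and Cfp under this scaling all lay between 0.87-fold and 1.74-fold.

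The 4 genes did not share 1 order of arrays. In the quantile-normalized values, wild-type replicate 3 was the lowest array for C2, Cfb and Cfp, and knockout replicate 2 for Serping1. Knockout replicate 1 was the highest for C2, Cfp and Serping1, and knockout replicate 2 for Cfb. This order depended on the scaling. With arrays scaled to a common median, wild-type replicate 2 was the lowest for C2 (11.45) and Cfp (9.95), and knockout replicate 2 the highest (12.02 and 10.69). Wild-type replicate 3 was then the lowest for Serping1 (8.55). With 75th percentile scaling, wild-type replicate 3 was the highest for C2 (11.97). In the quantile-normalized values Serping1 had the widest range over arrays. Among 13230 named genes, those closest to it in centred log2 values were Gja1, Bmp4 and Rbm47. Their root mean square distances over 4 arrays were 0.053, 0.082 and 0.102. Gja1, which encodes the main gap junction protein of many tissues, read 11.72 and 11.20 in wild type and 11.81 and 10.93 in the knockout.

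The size of these differences moved with the scaling of the arrays. On log2 of the authors' own normalized values the differences were 0.19 for C2, 0.33 for Cfb, 0.33 for Cfp and -0.02 for Serping1, close to those above. With arrays scaled to a common median, Cfp differed by 0.61 ± 0.12 (SE, n = 2 each, limma adjusted p = 0.118) and Cfb by 0.59 ± 0.20 (limma adjusted p = 0.276). Both then had an unadjusted p under 0.05 and were higher, as 16% of all tested probes were. The median over the 4 complement probes was then 0.49, beside 0.080 over all tested probes. With 75th percentile scaling, which moved the median of all tested probes to -0.144, the differences were 0.39 for Cfp, 0.36 for Cfb, 0.16 for Serping1 and 0.01 for C2. Relative to the median of all tested probes, they were 0.53 for Cfp, 0.51 for Cfb, 0.31 for Serping1 and 0.15 for C2. These relative values are the same under median scaling by construction, since each scaling shifts a whole array by 1 constant. C2 no longer lay apart under either scaling, with 11.86 on wild-type replicate 3 against 11.75 on knockout replicate 1 under median scaling, and Serping1 turned to 0.39 and 0.16. Cfb and Cfp lay apart and higher in the knockout in all 4 of these sets of values, as did 36.9% of tested probes under median scaling, 17.4% under 75th percentile scaling and 23.6% in each of the quantile-normalized sets.

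**Figure D2:**
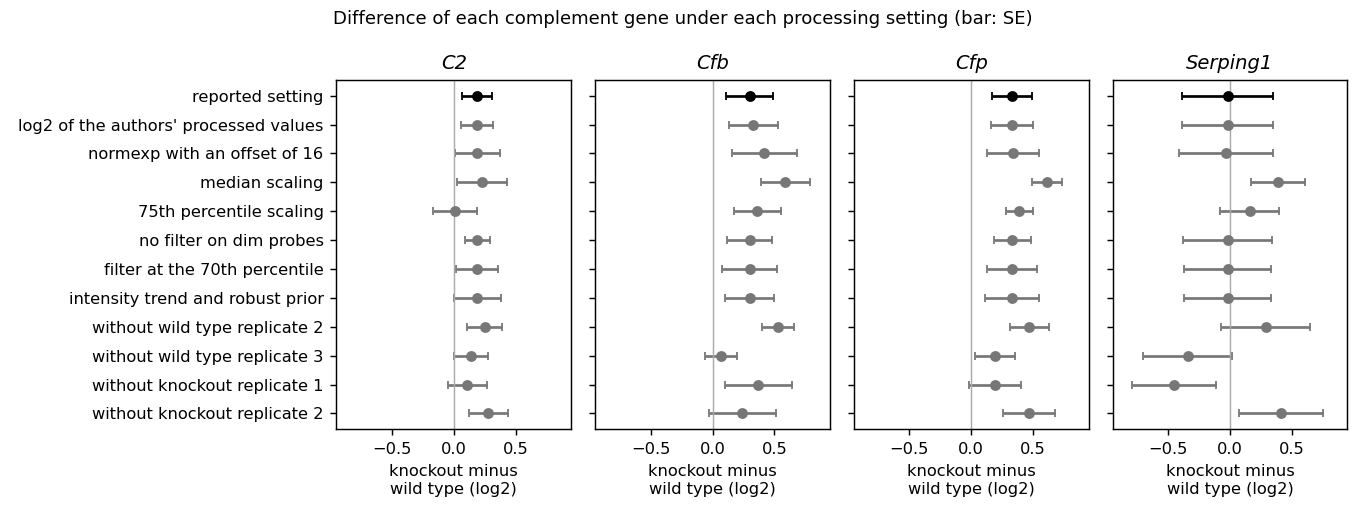
Difference between knockout and wild type (x axis, log2) of the 4 genes under the reported setting (black) and 11 alternatives (grey), with bars for the SE of the limma fit. Cfp stays between 0.19 and 0.61 and Cfb between 0.07 and 0.59, C2 comes down to 0.01, and Serping1 lies on both sides of 0, from -0.45 to 0.41.

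Cell type markers also differed between the arrays, although 0 genes of any list had a limma adjusted p under 0.05. Summed signal of 7 granulocyte genes was 2131 and 3313 on the wild-type arrays and 603 and 728 on the knockout arrays, led by S100a8 (10.31 and 11.01 against 7.07 and 7.72), with Ngp and Ltf below the filter level on all arrays. The lower sum came mainly from S100a8 and S100a9 (-2.38 ± 0.38, SE, n = 2 each). Of the other tested genes, Camp differed by -0.56 ± 0.14, Retnlg by -0.25 ± 0.16 and Csf3r by 0.05 ± 0.15. Cfp, a gene of these cells, had a higher mean in the knockout, where this sum was lower. The 7 macrophage genes with a probe summed to 3001 and 3809 against 3963 and 4085, and their median difference was 0.03. These genes went both ways, from -0.44 ± 0.16 for C1qa to 0.69 ± 0.44 for Lyz2. Csf1r and Cd68 were not analysed here. The part of either cell type in the Cfp values was not tested.

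The 6 fibroblast genes summed to 3980 and 2678 on wild-type replicates 2 and 3 and to 7219 and 3131 on knockout replicates 1 and 2. Replicates with high Serping1 were thus the higher of their group for this sum too, as for Dcn, a bright fibroblast matrix gene, at 11.21 and 10.88 against 12.01 and 10.67. Not every gene of the list had this order, and Col1a2 read 6.95 and 6.39 against 6.43 and 6.76. Keratinocyte genes (5 of 5 measured) summed to 16545 on knockout replicate 1 and to between 5202 and 6789 on the other arrays. In the same quantile-normalized values, the array with this skin signal was also the highest for C2, Cfp and Serping1. Under median scaling and under 75th percentile scaling, that array was the highest for Serping1 alone. Of 5 hepatocyte markers, Alb, Serpina1a and Fgb were below the filter level, Apoa1 read 8.30 and 7.94 in wild type against 7.63 and 7.52 in the knockout, and Ttr differed by -0.08 ± 0.16 (SE, n = 2 each). Interferon response genes (6 measured, median difference 0.02) and acute phase genes (6 measured, median difference 0.20) had 0 members with a limma adjusted p under 0.05. Irf1 differed by 0.00 ± 0.11 (SE, n = 2 each) and Ciita, named after its values were seen, by 0.45 ± 0.18. Of the acute phase genes, Saa3 differed by -1.22 ± 0.34 and Socs3 by -0.23 ± 0.28, while Hp (0.30 ± 0.20), Orm1 (0.60 ± 0.39), Cebpd (0.28 ± 0.18) and Lcn2 (0.11 ± 0.36) had higher means in the knockout. Erythroid genes (4 measured) had a median difference of -1.44, endothelial genes (4 measured) of -0.27, skeletal muscle genes (4 measured) of 0.53, and T and NK cell genes (4 measured) of 0.10. The part of these lists in the complement values was not tested.

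**Figure D3:**
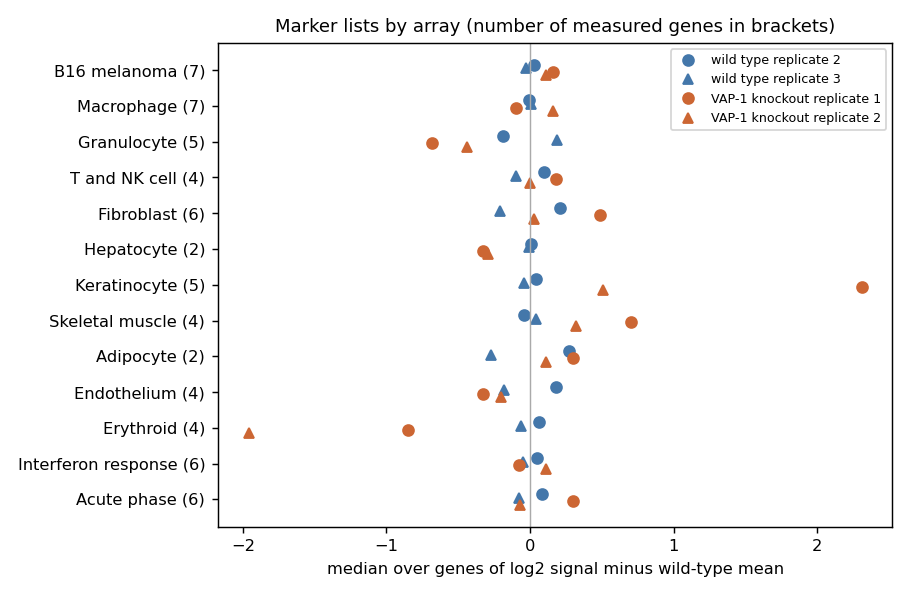
Median over the tested genes of each marker list of the log2 signal minus the wild-type mean (x axis), for each of the 4 arrays. Keratinocyte genes lie 2.31 above the wild-type mean on knockout replicate 1 and 0.51 above it on knockout replicate 2, and granulocyte genes lie at -0.68 and -0.44 on these arrays.

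The rest of the pathway was read from a list of 48 other complement genes, of which 45 had a probe and 28 passed the filter at their brightest probe. Among the 28, 0 had a limma adjusted p under 0.05 and 2 had an unadjusted p under 0.05, and both of these were lower in the knockout, where 7.12% of all tested probes were. The median difference was -0.05, with 10 means higher and 18 lower. Groups lay apart for 2 genes that were higher and for 7 that were lower, beside 23.6% and 25.6% of all tested probes. The alternative route protease gene Cfd was not analysed here.

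Among the genes that start the cascade, 9 of 16 passed the filter, and the C1q chains, which join into a single protein, did not go the same way. C1qa read 8.76 and 8.46 in wild type against 8.04 and 8.30 in the knockout, a difference of -0.44 ± 0.16 (SE, n = 2 each, unadjusted p = 0.0484, limma adjusted p = 0.302). C1qb differed by 0.30 ± 0.13 and C1qc by 0.03 ± 0.13, and neither passed. C1ra, Masp2 and Mbl1 had means below the filter level.

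Terminal components build the membrane pore, and apart from C8g those tested were near the floor of the array. Of 7 genes 6 passed the filter, with differences from -0.17 to 0.06 at their brightest probes. C8a (-0.05 ± 0.10, SE, n = 2 each) and Hc, the gene of C5 (0.03 ± 0.16), lay in that range. Another tested probe of C7 differed by -0.24 ± 0.13. C8g, at 6.66 and 7.79 in wild type, varied more between the wild-type replicates than between the groups.

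Of the soluble regulators, Clu, which encodes the chaperone and pore inhibitor clusterin, read 7.12 and 7.05 in wild type and 7.90 and 6.94 in the knockout. Only knockout replicate 1, the array with more keratinocyte signal, was high, and the difference of 0.33 ± 0.33 (SE, n = 2 each) did not pass. Cfi, the protease that cuts C3b and C4b (-0.03 ± 0.12), and the carboxypeptidase N gene Cpn2 (-0.05 ± 0.11) were close to the floor.

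Membrane regulators and receptors likewise gave 0 genes with a limma adjusted p under 0.05. Cd59a, whose product blocks pore assembly on host cells, read 9.22 and 9.99 against 9.49 and 9.41, so the knockout arrays lay between the wild-type ones. Cd59b differed by 0.01 ± 0.18 (SE, n = 2 each). Csmd1, a regulator of the early cascade, differed by -0.45 ± 0.14 (unadjusted p = 0.029, limma adjusted p = 0.242) at its brightest probe. The other of its 7 probes that passed the filter differed by -0.91 ± 0.51 (limma adjusted p = 0.472). It read 7.69 and 6.19 against 6.04 and 6.02, so only wild-type replicate 2 was high and the other arrays lay near the floor. Among receptors, Cd93, an endothelial and myeloid surface protein, was 9.58 and 8.23 against 9.11 and 9.62 at its brightest probe. That difference was 0.46 ± 0.49, and the other Cd93 probe differed by 0.20 ± 0.27. Vsig4, a macrophage receptor for C3b, differed by -0.18 ± 0.11, and Itgax by -0.09 ± 0.10 at its brightest probe and 0.10 ± 0.10 at its other. The anaphylatoxin receptor genes C3ar1, C5ar1 and C5ar2 and the integrin genes Itgam and Itgb2 had means below the filter level.

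**Figure D4:**
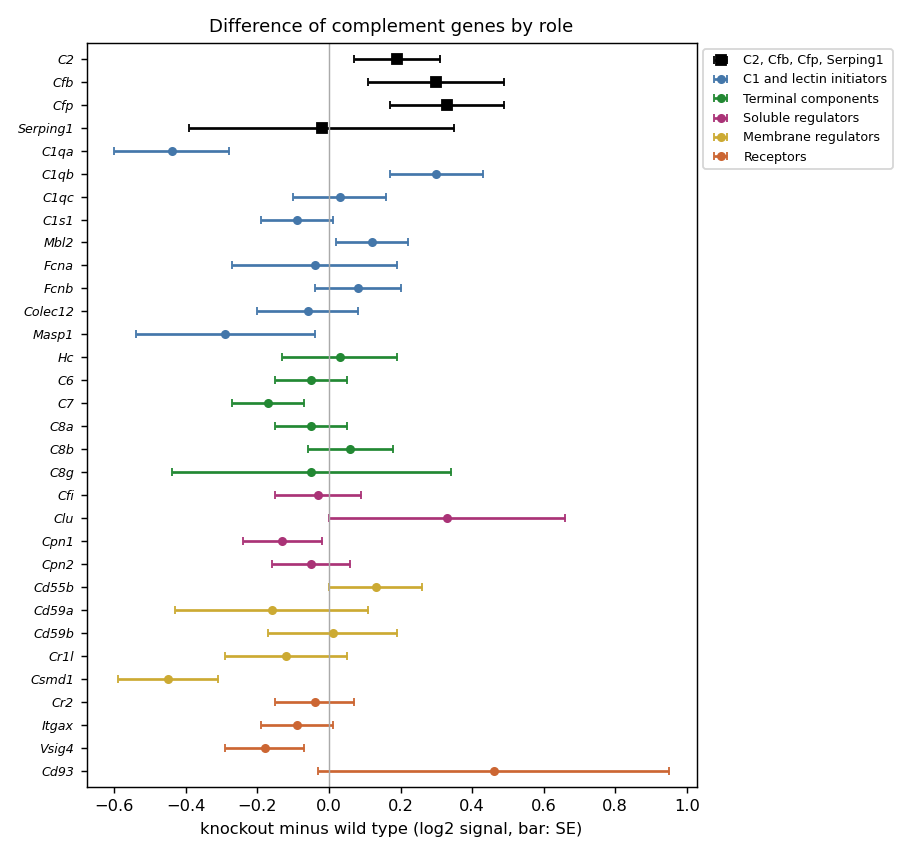
Difference between knockout and wild type (x axis, log2 signal, bars for the SE of the limma fit) of the 4 genes (black squares) and of the 28 other complement genes that passed the filter, coloured by role. At their brightest probes, the 28 range from -0.45 (Csmd1) to 0.46 (Cd93), with a median of -0.05.

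C2 and Cfb lie close together in the class III region of the mouse major histocompatibility complex, so the nearest measured genes were set beside them. Zbtb12, next to C2, differed by 0.70 ± 0.16 (SE, n = 2 each, limma adjusted p = 0.165) and Skiv2l, an RNA helicase gene beyond Cfb, by 0.68 ± 0.15 (limma adjusted p = 0.152). Nelfe, next to Cfb, which encodes a factor that pauses RNA polymerase, went the other way by -0.36 ± 0.12 (limma adjusted p = 0.257). The histone methyltransferase gene Ehmt2 differed by 0.06 ± 0.15. Around Cfp, the protease inhibitor gene Timp1 differed by -0.35 ± 0.21 and Uxt by -0.68 ± 0.30, Elk1 by -0.03 ± 0.10 and the synapsin gene Syn1 by 0.19 ± 0.11, the last with the sign of Cfp. Around Serping1, Clp1, Zdhhc5, Ube2l6 and Smtnl1 differed by -0.23 to -0.05. Of the 12 neighbours, 0 passed the adjusted threshold, and 2 higher and 1 lower had an unadjusted p under 0.05, beside 9.26% and 7.12% of all tested probes.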

How the data were processed

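Total RNA was amplified and biotin labelled with an Illumina TotalPrep kit, per the labels' protocols. Neither array software nor bead summary is given in the sources used here. The deposited unnormalized table holds probe intensity on a linear scale, with array medians from 55.3 to 68.3, and no detection p-values. The authors' processed intensity equals its quantile normalization, and all 46632 processed probes found a single partner row through their 4 values. Gene names came from the platform annotation.

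Background was corrected with normexp (offset 50), arrays were quantile normalized, and log2 was taken. The 27979 probes with a mean above the 40th percentile were tested with limma 3.58.1 in R 4.3.3 (lmFit and eBayes, two-sided, Benjamini-Hochberg over all tested probes, threshold 0.05). The offset compresses differences of dim probes, and the filter level lies near the floor. An exact permutation test of 2 against 2 arrays cannot go below 0.333 and was not run. On simulated data for 27979 probes, 1.55% of simulated 2-fold changes and 71.7% of simulated 4-fold changes passed the adjusted threshold. At an unadjusted limma p under 0.05, 95.2% of simulated 2-fold changes and 4.95% of unchanged probes passed, where 16.4% of the measured probes did. The simulation changed few probes and gave both groups the same spread, unlike these arrays, so its shares need not hold for them. The number of arrays limits the precision of every value, and no slide or scan batch was given. A brightest probe stood for each gene, named genes were taken by role, brightness and unadjusted p, and the members and lists were chosen with earlier results of these data known.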

Additional observations from a re-analysis of the deposited data

How the results depend on the processing

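C2, Cfb and Cfp kept a higher mean in the knockout under all 11 alternatives, but most of these could not have reversed it. The filter and trend settings leave the difference itself unchanged. Both knockout arrays were above both wild-type arrays, so leaving 1 array out could not turn the sign. Of the other alternatives, 75th percentile scaling brought C2 to 0.01. With all 4 arrays, none of the 4 complement genes passed the adjusted threshold. Their limma adjusted p then ran from 0.118 (Cfp under median scaling) to 0.99 (Serping1 with no filter). Cfp ranged from 0.19 to 0.61, Cfb from 0.07 to 0.59 and C2 from 0.01 to 0.28. Serping1 turned to 0.39 under median scaling and 0.16 under 75th percentile scaling, and ran from -0.45 to 0.41 when 1 array was left out. The cause was not tested. The count of complement probes with an unadjusted p under 0.05 was 2 under median scaling (16.4% of all probes), 1 under 75th percentile scaling (18.1%) and 0 to 2 when 1 array was left out, with 2 (Cfb and Cfp) without wild-type replicate 2, where 24.9% of all probes passed. Over all probes limma called 0, and 4 with an intensity trend and robust prior. It called 0 to 1700 when 1 array was left out, 1700 and 877 without wild-type replicates 2 and 3, with the spread then taken from the closer knockout pair and the lone wild-type array assumed to vary alike. Aoc3 was 0.02 under median scaling and -0.78 to 0.04 when 1 array was left out. Arrays left out were dropped after normalization of all 4. The mean of a gene's probes was not run, since each complement gene has 1 probe. No paired analysis was possible because the groups share only replicate number 2. Signal near the floor limits the terminal components and most receptors.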
